A study of Homo sapiens with 4 samples.

Results

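The 10 genes described here were the 3 TGF-beta ligands (TGFB1, TGFB2 and TGFB3), their receptors (TGFBR1, TGFBR2 and TGFBR3), the signal transducers SMAD3 and SMAD4, and the inhibitors SMAD7 and SKIL. They were selected on pathway membership and on the levels of TGFB3 and other members in these same libraries, whose difference between the groups was already known, and were matched by GENCODE symbol to Ensembl identifiers, 10 of the 64252 genes in the table. All 10 were among the 18779 genes with enough counts to be tested. Total RNA was sequenced from cells of the human neuroblastoma line SK-N-BE(2) that carried scramble shRNA (sh-Scb, 2 libraries) or sh-SAPCD2 (2 libraries). SAPCD2 is the gene targeted by the knockdown, and the question was which transcripts depend on it. Both groups were established by lentiviral infection and puromycin selection, as the methods describe for stable lines, and the labels do not say which SAPCD2 hairpin the sequenced cells carried or whether the libraries of a group came from separate cultures, so the spread between them may be technical.

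TGF-beta ligands are secreted as latent dimers held in the extracellular matrix and are released by proteases or integrins. The active ligand binds the type II receptor TGFBR2, which recruits and phosphorylates the type I receptor TGFBR1, while TGFBR3 (betaglycan) is a co-receptor that presents ligand, TGFB2 above all. TGFBR1 then phosphorylates SMAD2 and SMAD3, which enter the nucleus with SMAD4, and SMAD7 and SKIL are inhibitors whose own genes are targets of the pathway.

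The libraries held 25347900 to 31850997 counts, and 3 counts, taken as the smallest detectable amount, corresponded to 0.0955 to 0.119 CPM (read counts scaled for library size and composition). SAPCD2 itself was at 83.6 and 82.2 CPM in the sh-Scb libraries and at 35.4 and 52.5 CPM in the sh-SAPCD2 libraries, a log2 fold change of −0.91 (standard error (SE) 0.193, adjusted p = 0.0206, edgeR quasi-likelihood test, Benjamini-Hochberg adjusted across the tested genes). Over 13 settings of the analysis the log2 fold change of SAPCD2 ran from −1.27 to −0.67. The call held in 12 of them, and without the filter on low counts the adjusted p was 0.0749. All 11 adrenergic neuroblastoma markers examined were tested, with summed levels of 2478 to 3280 CPM across libraries. The 10 mesenchymal markers summed to 1828 and 1832 CPM in the sh-Scb libraries and to 1100 and 1136 CPM in the sh-SAPCD2 libraries. Most of that sum was VIM, at 1188 and 536.4 CPM in the group means. Of the 9 tested, VIM, NOTCH2 and PDGFRA fell, FOSL1 (log2 fold change 2.36) and FOSL2 (0.61) rose, and 4 did not pass, while their defining marker PRRX1 was at 0 in all 4 libraries. The 10 markers of immune, endothelial and epithelial cells summed to 13.8 to 17.5 CPM, of which PTPRC made up 8.94 to 12.4 CPM, with CD3E and KRT5 at 0 in all libraries. Of the 5 tested, CD68 (1, 2, 11 and 12 counts, adjusted p = 0.0372) and VWF (2, 2, 14 and 28 counts, adjusted p = 0.017) were called higher. The 2 sh-SAPCD2 libraries differed from each other with GC content. From the lowest to the highest of 4 equal bins of genes by GC content, the median log2 difference of sh-SAPCD2 library 2 over library 1 went from −0.25 to 0.37, against 0.01 to −0.01 between the sh-Scb libraries.

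Of the 10 genes, TGFB3 and SMAD7 rose and TGFBR1 fell at an adjusted p under 0.05, and 7 did not pass. These genes were selected with this contrast known, so the counts are a description. Among all tested genes 12.4% were called higher and 12.5% lower, and 9.84% were DEGs, which also had an absolute log2 fold change over 1. TGFB3 and SMAD7 were DEGs. The values of the groups did not overlap for 7 members (4 higher and 3 lower in SAPCD2-knockdown cells), which was the case for 67.0% of all tested genes. The median log2 fold change of the members was −0.01, beside 0.02 for all tested genes.

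**Figure D1:**
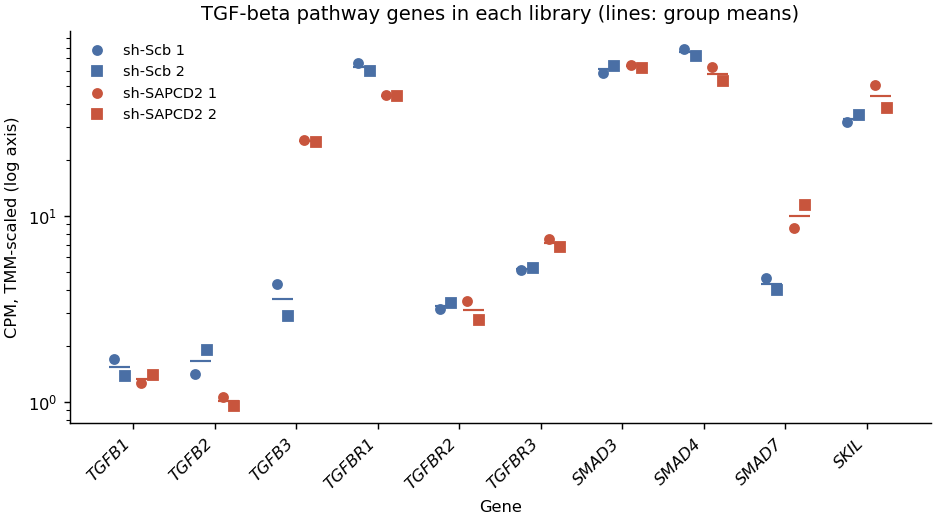
Level of each of the 10 TGF-beta pathway members in each library, in CPM on a log axis, with sh-Scb and sh-SAPCD2 libraries as separate points. TGFB3 lay between 2.91 and 4.27 CPM in the sh-Scb libraries and between 24.96 and 25.4 CPM in the sh-SAPCD2 libraries, the widest gap among the members.

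The sequences upstream of TGFB3 are given because this ligand had the largest difference among the members, and that of TGFB2 because both its knockdown libraries were lower. The difference of TGFB2 did not pass the threshold, and both knockdown libraries were also lower for TGFBR1 and SMAD4. Each run is the 250 bases before an annotated transcript start (RefSeq, GRCh38.p14), written 5′ to 3′ on the strand of the gene. Capitals mark matches to the 8 motifs searched.

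TGFB3 start 1, chr14:75983012-75983261, minus strand: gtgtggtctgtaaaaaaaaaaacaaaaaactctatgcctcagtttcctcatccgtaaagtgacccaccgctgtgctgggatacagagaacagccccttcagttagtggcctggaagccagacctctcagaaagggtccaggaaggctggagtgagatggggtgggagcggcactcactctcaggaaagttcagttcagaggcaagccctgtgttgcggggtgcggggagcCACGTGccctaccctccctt

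TGFB3 start 2, chr14:75981996-75982245, minus strand: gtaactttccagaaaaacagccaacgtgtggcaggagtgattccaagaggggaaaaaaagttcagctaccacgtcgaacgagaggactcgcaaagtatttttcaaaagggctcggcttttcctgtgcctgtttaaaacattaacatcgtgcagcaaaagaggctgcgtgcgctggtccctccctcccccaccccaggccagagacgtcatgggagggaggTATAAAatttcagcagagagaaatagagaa

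TGFB2, chr1:218345086-218345335, plus strand: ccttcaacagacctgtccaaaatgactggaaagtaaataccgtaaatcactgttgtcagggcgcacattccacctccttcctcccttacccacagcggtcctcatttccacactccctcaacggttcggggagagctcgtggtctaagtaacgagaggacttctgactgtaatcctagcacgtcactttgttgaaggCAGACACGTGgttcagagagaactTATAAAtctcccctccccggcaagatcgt

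The motifs were searched on both strands as the SMAD-binding element GTCTAGAC, the SMAD box CAGACA, the AP-1 site TGANTCA, the cAMP response element TGACGTCA, the E-box CACGTG, the E2F site TTTCCCGC, the ATF4 element TGATGNAA and the TATA box TATAAA. The window of TGFB3 start 1 held an E-box 20 to 15 bases before the start, and that of start 2 held a TATA box 30 to 25 bases before it. TGFB2 held a TATA box 29 to 24 bases before its start and a SMAD box and an E-box that shared letters, 53 to 48 and 49 to 44 bases before it. Among 35116 windows of the same length, 6.34% held the E-box, 10.7% the TATA box and 13.6% the SMAD box. The window of TGFB1 held none of the 8. SMAD7 held a TATA box 35 to 30 bases before 1 of its 3 starts, and SKIL held the cAMP response element, found in 1.65% of windows, 54 to 47 bases before its start. SMAD boxes also lay in some windows of TGFBR1 and SMAD3, each of which had several annotated starts and so several windows searched. Windows of SMAD3 further held an E-box and an AP-1 site, the latter found in 6.57% of windows. These matches describe letters in the windows.

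TGFB3 (ENSG00000119699), a ligand gene on chromosome 14 from 75958097 to 75983011 on the minus strand (hg38), had 118 and 80 counts in the sh-Scb libraries and 644 and 784 counts in the sh-SAPCD2 libraries. Its level was 4.27 and 2.91 CPM in sh-Scb cells and 25.4 and 24.96 CPM in SAPCD2-knockdown cells. The groups were far apart, and the sh-SAPCD2 libraries lay closer to each other than the sh-Scb libraries did. The means were 3.59 ± 0.965 CPM and 25.2 ± 0.337 CPM (SD, n = 2 each), with a log2 fold change of 2.81 (SE 0.218), a 7.01-fold higher level. By log2 fold change it ranked 54 of 18779 tested genes, and 24 of the 15682 with a mean of at least 1 CPM. The log2 fold change stayed between 2.56 and 3.11 over all 13 settings of the analysis, and was 2.80 with a correction for GC content and length.

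The other ligands were low in both groups. TGFB1 (ENSG00000105329, chromosome 19 from 41301587 to 41353922, minus strand) was at 1.70 and 1.38 CPM in the sh-Scb libraries and 1.26 and 1.40 CPM in the sh-SAPCD2 libraries. These groups overlapped, and the log2 fold change of −0.21 (SE 0.313) did not pass. TGFB2 (ENSG00000092969, chromosome 1 from 218345336 to 218444619, plus strand) was at 1.41 and 1.89 CPM in sh-Scb cells and 1.07 and 0.955 CPM in SAPCD2-knockdown cells. Both sh-SAPCD2 libraries were below both sh-Scb libraries, with a log2 fold change of −0.71 (SE 0.337) that did not pass the threshold. At 27 to 52 counts per library, TGFB1 and TGFB2 were measured with less precision than TGFB3.

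Dividing each ligand by its merged exon length allowed their levels to be compared. TGFB3 made up 52.0% and 43.1% of the summed ligand level per kb in the sh-Scb libraries and 89.6% and 89.1% in the sh-SAPCD2 libraries. In sh-Scb cells the 3 ligands thus shared the pool, and in knockdown cells most of it was TGFB3 transcript. The share of TGFB1 was 32.9 ± 0.286% in sh-Scb cells and 7.56 ± 0.616% in knockdown cells, and that of TGFB2 was 19.5 ± 6.60% and 3.09 ± 0.214% (SD, n = 2). The sum of the 3 ligands was 1.43 ± 0.198 CPM per kb in sh-Scb cells and 5.40 ± 0.0479 CPM per kb in knockdown cells. These shares follow from the TGFB3 difference that chose the genes and are given without a test.

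**Figure D2:**
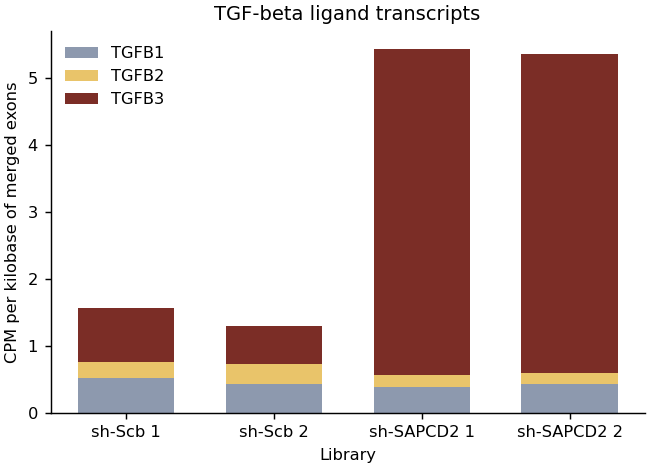
Level of TGFB1, TGFB2 and TGFB3 per kb of merged exons in each library, in CPM per kb. TGFB3 held 43.1% to 52.0% of the summed level in the sh-Scb libraries and 89.1% to 89.6% in the sh-SAPCD2 libraries.

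The receptors did not move together. TGFBR1 (ENSG00000106799, chromosome 9 from 99104038 to 99154192, plus strand), the type I receptor kinase, was at 66.1 and 60.0 CPM in the sh-Scb libraries and 44.3 and 44.04 CPM in the sh-SAPCD2 libraries. Every knockdown library was below every control library. Its mean was 63.0 ± 4.31 CPM against 44.2 ± 0.174 CPM (SD, n = 2), 70.1% of the control level, with a log2 fold change of −0.51 (SE 0.116). The call held in 10 of 13 settings, and was lost without the filter on low counts and without sh-Scb replicate 1 (log2 fold change −0.44) or sh-Scb replicate 2 (−0.58). With a library left out, its group has 1 library, which is assumed to vary like the other group, whose pair alone gives the spread.

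TGFBR2 (ENSG00000163513, chromosome 3 from 30606601 to 30694142, plus strand), the type II receptor that binds the ligand first, was at 3.15 and 3.38 CPM in sh-Scb cells and 3.48 and 2.74 CPM in SAPCD2-knockdown cells. The groups overlapped, with a log2 fold change of −0.07 (SE 0.245). TGFBR3 (ENSG00000069702, chromosome 1 from 91680343 to 91906335, minus strand) was at 5.10 and 5.23 CPM in sh-Scb cells and 7.47 and 6.81 CPM in knockdown cells. The groups were separate, and the log2 fold change of 0.46 (SE 0.186) did not pass. It passed in 1 of the alternatives, the GC and length correction, at 0.55. The knockdown means of TGFBR2 and TGFBR3 were 95.2% and 138.1% of the control level.

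Among the transducers, SMAD3 (ENSG00000166949, chromosome 15 from 67063763 to 67195173, plus strand) was at 58.6 and 64.1 CPM in the sh-Scb libraries and 64.9 and 62.1 CPM in the sh-SAPCD2 libraries. The groups overlapped, with a log2 fold change of 0.05 (SE 0.113). SMAD4 (ENSG00000141646, chromosome 18 from 51028528 to 51085045, plus strand), the shared partner of the receptor-activated SMADs, was at 78.6 and 72.2 CPM in sh-Scb cells and 62.6 and 52.8 CPM in knockdown cells. The knockdown libraries were lower, at 76.5% of the control mean, and the log2 fold change of −0.39 (SE 0.130) did not pass. Its log2 fold change was −0.52 without sh-SAPCD2 replicate 1 and −0.27 without sh-SAPCD2 replicate 2. Both fits called it, with the spread taken from the sh-Scb pair alone, a setting that also called more of all genes.

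SMAD7 (ENSG00000101665, chromosome 18 from 48919853 to 48950965, minus strand), the inhibitory SMAD that competes at the type I receptor, had 128 and 110 counts in the sh-Scb libraries and 218 and 357 counts in the sh-SAPCD2 libraries. It was at 4.63 and 3.998 CPM in sh-Scb cells and 8.61 and 11.4 CPM in knockdown cells. Both knockdown libraries were above both controls, and they differed from each other by more than the controls did. The means were 4.32 ± 0.450 CPM and 9.99 ± 1.95 CPM (SD, n = 2), with a log2 fold change of 1.21 (SE 0.220), a 2.32-fold higher level. The call held in all 13 settings.

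SKIL (ENSG00000136603, chromosome 3 from 170357342 to 170396835, plus strand) encodes SnoN, a nuclear repressor of SMAD complexes. It was at 31.9 and 34.6 CPM in sh-Scb cells and 50.2 and 37.8 CPM in SAPCD2-knockdown cells. The groups were separate by a narrow margin, and the log2 fold change of 0.40 (SE 0.169) did not pass. It was 0.18 without sh-SAPCD2 replicate 1, which did not pass, and 0.60 without sh-SAPCD2 replicate 2 and 0.51 with the GC and length correction, which did.

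**Figure D3:**
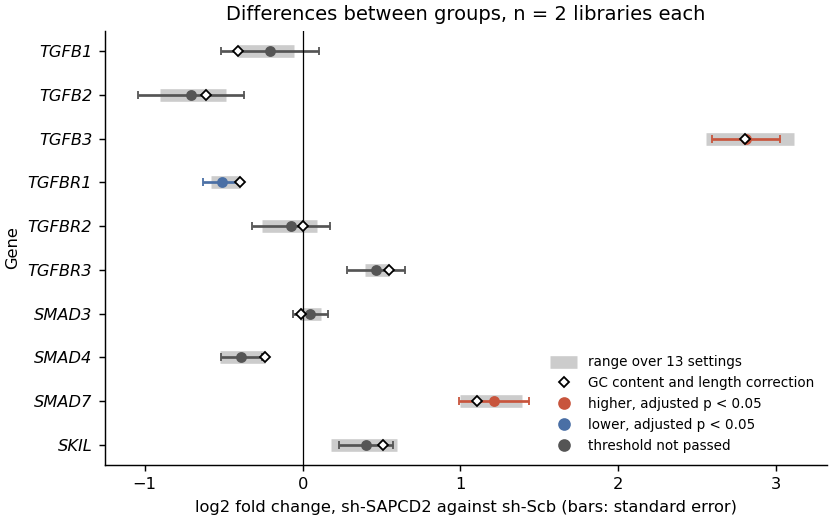
Log2 fold change of each member in SAPCD2-knockdown over sh-Scb cells, with its standard error. TGFB3 (2.81) and SMAD7 (1.21) lay above 1, TGFBR1 (−0.51) was called lower, and the other 7 did not pass the threshold.

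Per kb of merged exons, the levels in sh-Scb cells ran from TGFBR1 (7.89 CPM per kb) through SMAD3 (6.13), SKIL (4.10), SMAD4 (3.85), SMAD7 (1.09), TGFB3 (0.687), TGFBR3 (0.603), TGFBR2 (0.477) and TGFB1 (0.472) to TGFB2 (0.273). The libraries of SKIL and SMAD4, of TGFB3 and TGFBR3, and of TGFBR2 and TGFB1 overlapped, so the order of each pair was within its spread. In knockdown cells TGFB3, at 4.83 CPM per kb, followed SMAD3 (6.34), TGFBR1 (5.53) and SKIL (5.42), and the libraries of SKIL overlapped with those of TGFBR1 and of TGFB3. SMAD4 (2.94) and SMAD7 (2.53) came next and overlapped. With the longest transcript as the length, SMAD4 was at 8.43 CPM per kb in sh-Scb cells, above SKIL (4.42), and TGFB3 at 7.35 CPM per kb in knockdown cells was second to SMAD3 (9.83).

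Several members share their locus with another gene, and the strandedness of the counting is not given in the sources used here, so reads of overlapping exons could not be assigned with certainty. TGFB3 shares 163 exon bases with TGFB3-AS1 on the opposite strand, which had 1 to 3 counts per library. It also overlaps IFT43, with no shared exon bases, whose log2 fold change was 0.44 (adjusted p = 0.116). TGFB1 shares 215 exon bases with HNRNPUL1 on the opposite strand, an abundant RNA-binding protein gene with 3305 to 6416 counts that fell by 0.73 on the log2 scale (adjusted p = 0.00658). With 32 to 47 counts of its own, the TGFB1 value is uncertain. TGFB2 shares 701 exon bases with TGFB2-AS1, which had 0 counts in all 4 libraries. SMAD4 shares 967 exon bases with ENSG00000267699 on the same strand, which had 0 to 5 counts per library. SMAD3 shares 182 exon bases with ENSG00000259347 on the opposite strand, which had 0 counts in all 4 libraries. SMAD7 and SKIL overlap no annotated gene.

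The genes whose pattern over the 4 libraries lay closest to that of TGFB3 were PKD1L1, ITGA11, PLPP2, MIR22HG and MEIOB, by the Euclidean distance of log2 CPM centred on each gene's mean, among 15681 genes with at least 1 CPM. PKD1L1 (distance 0.104) had 1.59, 1.09, 9.09 and 8.98 CPM. ITGA11 (0.286), which encodes a collagen-binding integrin subunit, had 2.75, 2.43, 20.2 and 20.1 CPM. The distance was taken over 4 libraries in 2 groups.

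The other genes of the pathway were taken from 7 lists of 142 genes, of which 114 were tested, 13 had no count, 23 rose and 13 fell. The called genes were 31.6% of those tested, beside 24.8% of all tested genes, and the median log2 fold change was 0.22 beside 0.02. These lists were assembled with earlier results of these data known.

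Among the 23 genes of the latent complex and its activation, 21 were tested, 7 rose and 2 fell, with a median log2 fold change of 0.40. The called share was 42.9%, beside 24.8% of all tested genes. MMP14, a membrane-bound protease that can release latent TGF-beta, was at 103.4 ± 1.58 CPM in sh-Scb cells and 351.5 ± 50.1 CPM in knockdown cells (log2 fold change 1.76, SE 0.128, adjusted p = 0.00201). MMP2, a gelatinase that MMP14 activates, rose from 427.9 to 652.6 CPM (0.61, adjusted p = 0.00834). NRROS, which anchors latent TGF-beta on microglia and related cells, rose from 2.39 ± 0.212 to 6.90 ± 0.149 CPM (adjusted p = 0.0064), and shares 222 exon bases with the more abundant PIGX. FBN1, the fibrillin to which latent complexes bind, fell by 0.73 on the log2 scale (adjusted p = 0.0118). FURIN, the convertase that cleaves TGF-beta precursors, was chosen after its values were seen and rose by 0.89 on the log2 scale (adjusted p = 0.0155).

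Of the 16 other receptors and co-receptors, 13 were tested, 3 rose and 2 fell, a called share of 38.5% beside 24.8% of all tested genes. ENG (endoglin), a co-receptor for TGFB1 and TGFB3, rose from 9.41 ± 0.615 to 22.2 ± 0.572 CPM (log2 fold change 1.24, adjusted p = 0.00456), and the activin type II receptor ACVR2B from 66.8 to 130.4 CPM (0.96, adjusted p = 0.00378). BAMBI, a pseudoreceptor without a kinase domain, was at 3.48 and 6.97 CPM in the group means (1.00, adjusted p = 0.0266). The type I receptors BMPR1B (−0.77, adjusted p = 0.0116) and ACVRL1 (−1.14, adjusted p = 0.0239) fell.

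Of 9 tested SMADs and SMAD cofactors, 1 rose, the SMAD anchor ZFYVE9 (SARA; 0.69, adjusted p = 0.0201), which shares 144 exon bases with CC2D1B on the opposite strand. The called share of this list was 11.1%, beside 24.8% of all tested genes. The coactivator EP300, the most abundant of the list, was at 125.1 and 135.4 CPM (adjusted p = 0.469). SMAD2, named because it is the partner of SMAD3, was at 50.4 and 46.6 CPM in the group means (log2 fold change −0.11, adjusted p = 0.499), and its sign turned under the GC and length correction (0.01).

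All 20 repressors and turnover genes were tested, and 5 rose and 2 fell, a called share of 35.0% beside 24.8% of all tested genes. SKI, the paralog of SKIL, rose from 110.7 ± 3.72 to 216.4 ± 9.57 CPM (log2 fold change 0.97, SE 0.0992, adjusted p = 0.0033), and the ubiquitin ligase WWP1 rose by 0.71 (adjusted p = 0.0126) and shares 247 exon bases with RMDN1 on the opposite strand. The transcriptional repressor ZBTB7A rose by 0.71 (adjusted p = 0.0174). LDLRAD4, which restrains SMAD activation, fell by 1.43 on the log2 scale (adjusted p = 0.0192). STRAP, an adaptor that holds SMAD7 at the receptor and the most abundant of the list, was at 191.5 and 227.2 CPM in the group means (adjusted p = 0.127).

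Of 24 tested TGF-beta response genes, 4 rose and 2 fell, with a median log2 fold change of 0.18. ID3, an inhibitor of helix-loop-helix factors, rose from 30.4 ± 1.35 to 61.3 ± 11.8 CPM (1.01, adjusted p = 0.00963), and CDH2 (N-cadherin) rose by 0.56 (adjusted p = 0.0188). CDKN1A, the cell cycle inhibitor p21, fell from 6.27 ± 0.290 to 2.18 ± 0.965 CPM (−1.51, adjusted p = 0.0227), and FN1 (fibronectin) fell by 0.59 on the log2 scale (adjusted p = 0.0233). In the same libraries 3 of the 9 tested mesenchymal markers fell and 2 rose, and their part in this list was not tested. The familiar target CCN2, named after its values were seen, had 2 to 7 counts per library and was not tested.

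Of 19 tested activin, BMP, GDF and nodal ligands, 2 rose and 2 fell, a called share of 21.1% beside 24.8% of all tested genes. GDF15, a stress-induced divergent member, had 4 and 14 counts in the sh-Scb libraries and 84 and 153 counts in the sh-SAPCD2 libraries (log2 fold change 3.63, SE 0.529, adjusted p = 0.00713). Its log2 fold change was 2.999 without sh-Scb replicate 1 and 4.78 without sh-Scb replicate 2. BMP5 rose by 0.89 (adjusted p = 0.00866), and BMP4 fell from 16.8 ± 0.389 to 8.08 ± 0.144 CPM (adjusted p = 0.00683). AMH (anti-Müllerian hormone) fell by 0.98 on the log2 scale (adjusted p = 0.0305), while GDF11, the most abundant of these ligands, was at 95.7 and 121.2 CPM (adjusted p = 0.0656). Among 8 tested secreted antagonists, NBL1 rose by 0.95 (adjusted p = 0.0172) and 3 genes fell. The called share of this short list was 50.0%, beside 24.8% of all tested genes. NBL1 shares 131 exon bases with MICOS10 on the same strand. The BMP antagonist CHRDL1 had 30 and 21 counts in sh-Scb cells and 3 and 5 counts in knockdown cells (adjusted p = 0.0178). TWSG1, which binds BMPs with chordin, fell by 0.57 on the log2 scale (adjusted p = 0.0294), and DAND5 fell by 1.00 (adjusted p = 0.0369). FSTL1, the most abundant of the list, was at 149.5 and 155.0 CPM (log2 fold change 0.05, adjusted p = 0.746).

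**Figure D4:**
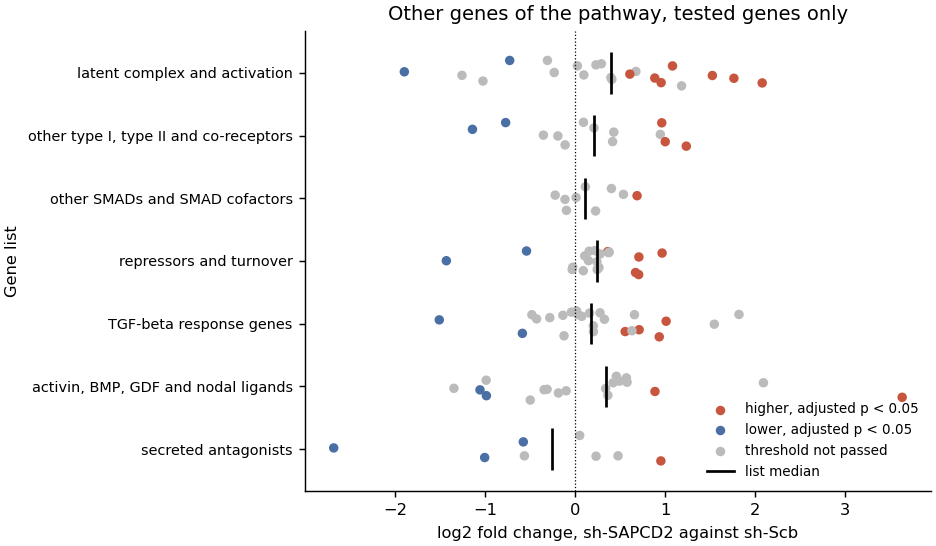
Log2 fold changes (SAPCD2-knockdown over sh-Scb) of the tested genes in each of the 7 pathway lists, with called genes marked. In the list of the latent complex and its activation 7 of 21 tested genes rose and 2 fell, and GDF15 (3.63) was the highest point. Among all tested genes, 24.8% were called.

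The calls of MMP2, FBN1, ZFYVE9, WWP1, ZBTB7A, CDH2, FN1 and TWSG1 were lost without sh-Scb replicate 1 and without sh-Scb replicate 2. Those of BMPR1B, CHRDL1, FURIN and BAMBI were lost without sh-Scb replicate 1, and that of HNRNPUL1 without sh-Scb replicate 2. MMP14, NRROS, ENG, ACVR2B, SKI, ID3, BMP4, BMP5 and GDF15 kept their calls in all settings in which they were tested.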

How the data were processed

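Gene expression was measured by RNA-seq in 4 SK-N-BE(2) libraries, 2 carrying scramble shRNA (sh-Scb) and 2 carrying sh-SAPCD2, grouped by their labels. The authors used HISAT2 2.2.0 (hg38) for alignment of paired-end reads and StringTie for abundances, and deposited whole-number counts per Ensembl gene, not scaled for library size. The tool that made the counts, its strandedness and its rule for multiply mapped reads are not given in the sources used here. Reads shared with overlapping genes can therefore move low values. Of 64252 genes, 29317 had no count.

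The counts were scaled by TMM and fitted with edgeR 4.0.16 (quasi-likelihood test, R 4.3.3) over the 18779 genes left by filterByExpr (minimum count 10, minimum total 15), with Benjamini-Hochberg adjustment over all of them. The biological coefficient of variation was 15.4%. CPM values are TMM-scaled. A gene was called at an adjusted p under 0.05, and a DEG also had an absolute log2 fold change over 1. The tests were tried on simulated counts. Lengths, GC content and overlaps came from GENCODE 44, matched by 17467 tested genes (93.01%), and promoter windows from RefSeq (GRCh38.p14). The symbols of 183 of 183 listed genes were matched, 2 of them through a RefSeq synonym. The floor of 3 counts covers counting error only.

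The 10 members, the lists and the tests were chosen with earlier results of these data known, so no p-value is given for the members. Genes named from a list were its up to 4 called genes with the smallest p and its highest in mean CPM. FURIN, BAMBI, SMAD2 and CCN2 were added after their values were seen. A gene of the lists is not reported here. Results were recomputed with DESeq2 1.42.0, with edgeR on DESeq2 size factors or on unscaled library totals, without the low-count filter, over genes averaging 1 CPM or more, with the replicate block, with a loess correction for GC content and length (span 0.3), with the block and this correction, with the DEG threshold, and with each library left out in turn. Tables and figures were made with Python 3.11.15.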

Additional observations from a re-analysis of the deposited data

How the results depend on the processing

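TGFB3 and SMAD7 kept their direction and call under all alternatives. Of 584 log2 fold changes recomputed for single genes, 510 kept their direction and side of the threshold, 49 lost it, 17 gained it and 8 turned in sign. In the main edgeR fit of this re-analysis, 2326 genes were higher and 2339 lower. Without the filter on low counts these were 1081 and 1180, with the DEG threshold 880 and 968, and leaving out single libraries gave 1176 to 4396 and 1146 to 4014. The correction for GC content and length called 3930 genes higher, and 3928 with the replicate block as well. Of the members, 4 were called higher with the GC correction, 0 lower without the filter or with the DEG threshold, and 0 to 2 lower with single libraries left out. For the other pathway genes, the 23 called higher became 10 without the filter, 39 with the GC correction (with or without the block), 8 with the DEG threshold and 12 to 40 with a library left out. The 13 called lower became 4 without the filter, 7 with the DEG threshold and 8 to 24 with a library left out. The cause of these shifts was not tested.

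Near 0, TGFBR2 turned to 0.000856 with the GC correction and 0.09219 without sh-SAPCD2 replicate 2 (from −0.2589 with single libraries left out), SMAD3 to −0.009346 with the GC correction, −0.009322 with the block as well and −0.01513 without sh-Scb replicate 1 (up to 0.1142), SMAD2 to 0.01031 and 0.005789 with the GC correction without and with the block, and FSTL1 to −0.03311 without sh-SAPCD2 replicate 1 (up to 0.1287). The TGFB3 share of ligand transcripts was 55.1% in sh-Scb cells and 91.9% in knockdown cells by longest transcript, and 91.5% in knockdown cells by CPM alone. With 2 libraries per group, leaving 1 out returns the share of the other, so this is not a separate check. Per kb of merged exons those shares were 52.0% and 43.1% in sh-Scb cells and 89.6% and 89.1% in knockdown cells. The replicate block gave 2860 genes higher and 2701 lower. The correlation between same-numbered libraries, after subtraction of each group's mean, was −0.0188. Because the sh-SAPCD2 pair differed with GC content and the sh-Scb pair hardly did, this value cannot tell whether same-numbered libraries were prepared together. The labels state no pairing, so the numbers are taken as names only. Without the filter, the calls of TGFBR1, SAPCD2, ACVRL1, ZFYVE9, ZBTB7A, LDLRAD4, CDH2, CDKN1A, FN1, AMH, NBL1, TWSG1, DAND5, FURIN, BAMBI, LTBP2, THBS1, MMP9 and EMILIN1 were lost. With 2 libraries per group and 27 to 52 counts for TGFB1 and TGFB2, small differences of these ligands were not detectable.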

Other observations

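The list of the latent complex and its activation held 9 called genes. The 4 not named above are given here, chosen after their values were seen. LTBP2 is an elastic fibre protein named as a member of the latent TGF-beta binding protein family. It had 113 and 88 counts in the sh-Scb libraries and 13 and 44 counts in the sh-SAPCD2 libraries (log2 fold change −1.90, adjusted p = 0.0308 by edgeR). THBS1, thrombospondin 1, which can activate latent TGF-beta, had 38 and 34 counts in sh-Scb cells and 81 and 74 counts in knockdown cells (1.08, adjusted p = 0.0448), and shares exon bases with FSIP1 and THBS1-AS1 on the opposite strand. MMP9, a gelatinase, had 6 and 10 counts in sh-Scb cells and 28 and 43 counts in knockdown cells (2.08, adjusted p = 0.0234), and shares exon bases with SLC12A5-AS1. EMILIN1, a matrix protein that binds the TGF-beta precursor, was at 178.6 and 175.1 CPM in sh-Scb cells and at 239.9 and 446.3 CPM in knockdown cells (0.96, adjusted p = 0.0486). The call of THBS1 was lost without sh-Scb replicate 1 (1.16), sh-Scb replicate 2 (1.01) or sh-SAPCD2 replicate 1 (0.84), and that of MMP9 without sh-Scb replicate 1 (1.76) or sh-SAPCD2 replicate 2 (1.92). DESeq2 called neither THBS1 (adjusted p = 0.103) nor EMILIN1 (adjusted p = 0.08). LTBP2 was at −2.81 without sh-SAPCD2 replicate 2, and EMILIN1 at 0.44.

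Of the uncalled genes of this list, the integrin subunit ITGB8 was at 5.29 and 17.9 CPM in the sh-Scb libraries and at 29.3 and 23.5 CPM in the sh-SAPCD2 libraries (log2 fold change 1.18, adjusted p = 0.138). LTBP1 was at 6.84 ± 0.301 and 6.96 ± 0.0146 CPM in the group means (SD, n = 2). LRRC32, the surface anchor of latent TGF-beta on regulatory T cells, had 0 to 13 counts per library and was not tested.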
